A study of Mus musculus with 5 samples.

Results

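The genes described here are 10 core components of the circadian clock, measured in the liver of mice injected with an antibody against the macrophage receptor CSF1R and in controls. They were taken by name (Npas2, Arntl, Clock, Per1, Per2, Per3, Cry1, Cry2, Ciart and Nfil3), out of 18820 genes that had a probe set with exactly 1 gene symbol. Ciart had 2 such probe sets and the others 1, and the one with the highest mean over the arrays stood for each gene. The 10 genes were chosen with earlier results of these data known. All mice were adult C57Bl/6. The 3 control livers came from mice given rat IgG and the 2 treated livers from mice given the anti-CSF1R antibody M279, in both groups as 300 µg into the peritoneal cavity 3 times a week for 6 weeks, with the liver removed at the end. Each liver sample was hybridised to 1 array. Neither the number of animals behind a sample nor the time of day at which livers were taken is given in the sources used here, so the spread between samples of a group, on which the p-values rest, may be technical.

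The mammalian clock is a feedback loop of transcription. The positive limb is a dimer of BMAL1, encoded by Arntl, with CLOCK or its paralogue NPAS2. It binds E-box sequences and switches on the negative limb, the Per, Cry and Ciart genes, whose proteins return to the nucleus and block the dimer. In a further loop the receptors REV-ERB (Nr1d1, Nr1d2) repress and ROR proteins activate genes that carry ROR elements, among them Arntl, Npas2 and Nfil3. NFIL3 in turn represses D-box sites that DBP, TEF and HLF activate. In liver the loop sets daily rhythms in the transcripts of many metabolic enzymes, and the levels of most of its own transcripts change in the course of a day.

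Stretches of promoter that hold these 3 kinds of element are shown because the loop acts through such elements. The grouping of the genes below follows what their proteins do and not the elements in their own promoters. They were found in RefSeq windows of assembly GRCm38.p6 that surround a start site, on both strands, and 9 of the 10 genes had a window (Per2 did not). The motifs searched were CACGTG (E-box), CACGTT (E'-box), TTATGTAA or TTACGTAA (D-box) and TAGGTCA or TGGGTCA (core of the ROR element). Of all 32851 windows 7.15% held the E-box, 4.68% the E'-box, 1.06% the D-box and 6.45% the core of the ROR element. The motifs are in capitals, each line reads 5′ to 3′ on the gene's strand, and no motif overlaps another.
Ciart, chr3:95882247-95882364, minus strand, E-boxes: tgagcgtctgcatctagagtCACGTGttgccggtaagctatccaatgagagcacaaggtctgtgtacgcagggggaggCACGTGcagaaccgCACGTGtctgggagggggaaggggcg
Per1, chr11:69098763-69098808, plus strand, E-box: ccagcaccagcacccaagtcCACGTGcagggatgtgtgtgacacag
Cry1, chr10:85185089-85185153, minus strand, E'-box read from the other strand and then E-box: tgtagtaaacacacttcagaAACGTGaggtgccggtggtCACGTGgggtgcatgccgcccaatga
Per3, chr4:151044796-151044890, minus strand, D-boxes: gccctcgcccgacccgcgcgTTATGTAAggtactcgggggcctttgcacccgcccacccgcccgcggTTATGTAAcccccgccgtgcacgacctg
Nfil3, chr13:52981040-52981071, minus strand, core of the ROR element read from the other strand: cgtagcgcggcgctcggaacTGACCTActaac
Arntl, chr7:113207529-113207558, plus strand, core of the ROR element: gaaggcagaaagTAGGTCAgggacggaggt
The Ciart stretch holds 3 E-boxes, which begin 116, 58 and 44 bases before the start. Per3 holds 2 D-boxes, 205 and 158 bases before its start. The Arntl element begins 30 bases after the start of the second of its 2 windows, so only 30 bases around it are given. Cry2 held an E'-box 166 bases before its start, and the windows of Npas2 and Clock held none of these letters. A match is a description of the letters in the window and not a measured binding site.

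Of the 10 clock genes, 8 had a lower mean in treated than in control liver and 2 a higher one. Of all genes 43.7% had a lower mean, and so did 66.1% of genes above the median level of all probe sets, where 9 of the 10 lay. Both treated arrays lay below all 3 controls for 5 of the clock genes, namely Npas2, Arntl, Per2, Cry1 and Ciart, and for none did both lie above. The count includes the Ciart probe set of higher mean, which is numbered among probe sets of genes on other chromosomes than Ciart. With the other Ciart probe set, a choice made after seeing the data, the count was 4. Over all 18820 genes, 19.5% had both treated arrays below all controls and 25.1% had both above. The same 5 genes had a limma p under 0.05, with a lower value in treated liver in each case, against 8.4% of all genes with a lower and 9.91% with a higher value. With the other Ciart probe set 4 genes had such a p. Over all probe sets, unnamed ones included, 16.9% had both treated arrays below and 24.3% above all controls, and 8.34% had a p under 0.05 with a lower and 10.1% with a higher value. After Benjamini-Hochberg adjustment over all 35556 probe sets, limma called 0 of the 10 genes and 0.0% of all probe sets, and the smallest adjusted p was 0.175. When limma was refitted on 1 probe set per gene, Npas2 passed (adjusted p = 0.0399), as did 0.0478% of genes with a lower and 0.0266% with a higher value, and the adjusted p of the other 9 lay between 0.0836 and 0.854. Differences below are therefore given as values in these livers. As the 10 genes were chosen with earlier results of these data known, the shares of all genes are given for scale and test nothing.

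**Figure D1:**
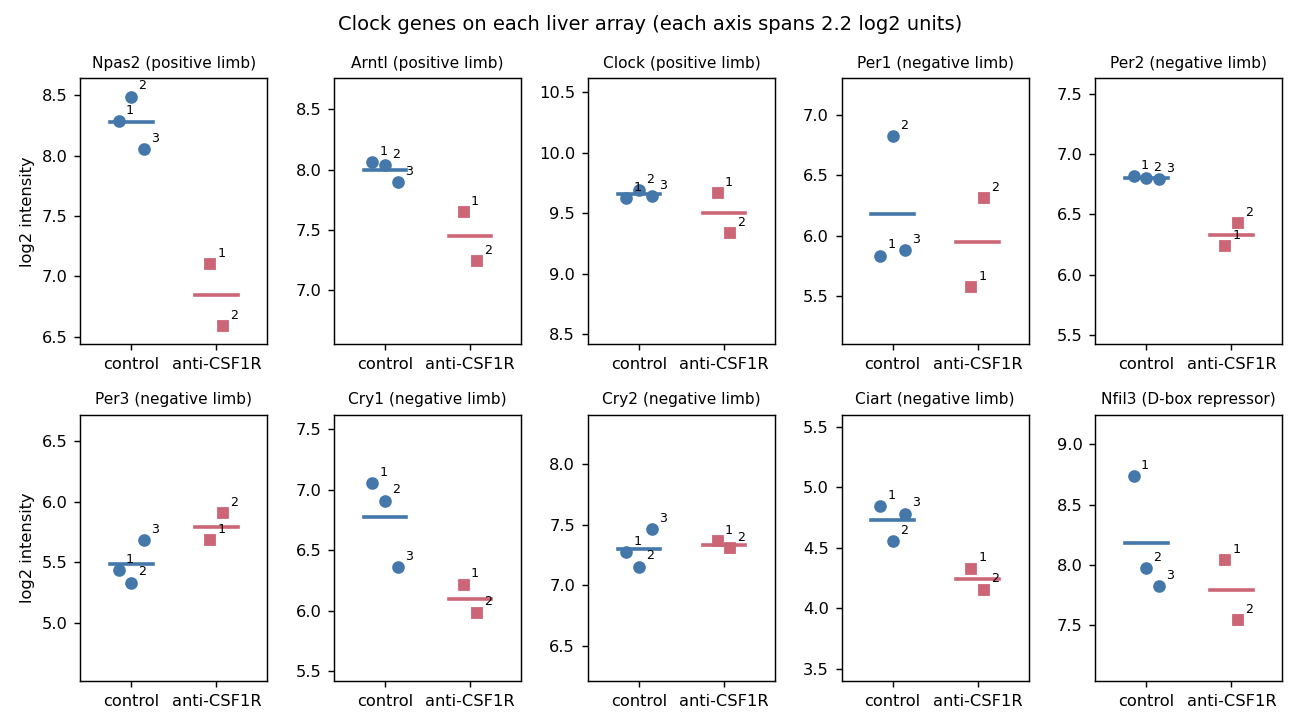
Log2 intensity of the 10 clock genes on each array, with blue circles for the 3 control arrays, red squares for the 2 treated arrays, replicate numbers beside them and bars at the group means. Npas2, Arntl, Per2, Cry1 and Ciart have both treated arrays below all controls, and every axis spans 2.2 log2 units.

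The brightness of a probe set bears on these counts, because dim probe sets tended to have higher and mid-level ones lower values on the treated arrays. The median difference over all genes was 0.04 on the log2 scale, but over the 10488 genes above the median level of all probe sets it was -0.10. Among those brighter genes 32.6% had both treated arrays below all controls and 8.64% had both above, and 14.2% had a limma p under 0.05 with a lower value against 2.15% with a higher one. Of the 10 clock genes, 9 lay above the median level, and Ciart lay at the 42.5th percentile. The median difference of the 10 clock genes as deposited was -0.43, to be set beside the -0.10 of the brighter genes. Quantile normalization brought the median of the brighter genes to -0.02, and the clock genes then ran from -1.32 (Npas2) to 0.43 (Per3). Ciart was then at -0.56, Cry1 at -0.52, Arntl at -0.44 and Per2 at -0.32. Nfil3 was at -0.29, Clock at -0.16, Per1 at -0.11 and Cry2 at 0.17.

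**Figure D2:**
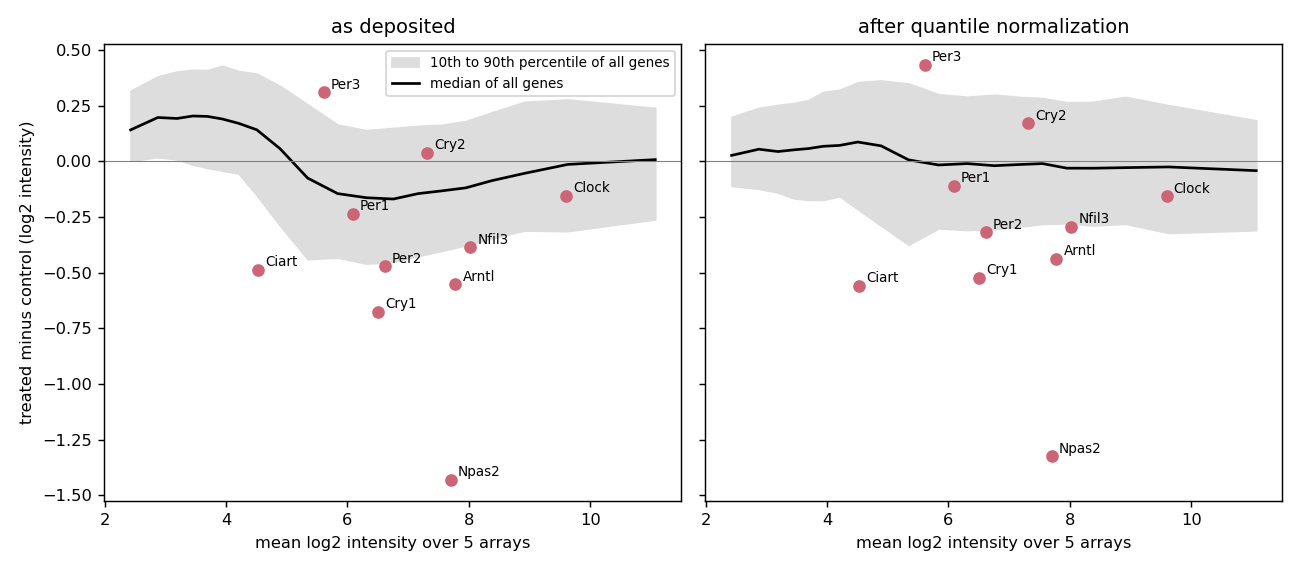
Difference between treated and control arrays (log2, vertical axis) against mean log2 intensity over the 5 arrays (horizontal axis), as deposited on the left and after quantile normalization on the right. The black line is the median and the grey band the 10th to 90th percentile of genes in 20 bins of level, and red points are the clock genes, of which Npas2 lies at -1.43 on the left and -1.32 on the right.

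The positive limb held the largest difference of the 10 and also Clock, with overlapping groups. Npas2, which encodes the DNA-binding partner that can take the place of CLOCK, had log2 intensities of 8.29, 8.49 and 8.05 on the control arrays and 7.10 and 6.59 on the treated ones. The gap between the lowest control and the higher treated array, 0.95, exceeded the whole range of the controls, 0.43. The log2 difference was -1.43 ± 0.20 (SE, 3 control and 2 treated arrays), with a 95% confidence interval of -1.92 to -0.94, which makes treated levels 62.9% lower (limma, adjusted p = 0.175). Only 9 of the 18820 genes had a more negative difference. In the bin of 941 genes of like level the median difference was -0.13, and 0.213% of them were at or below Npas2. Leaving out any 1 array kept the difference between -1.69 and -1.18.

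Arntl encodes BMAL1, the partner that both CLOCK and NPAS2 need in order to bind DNA. Its log2 intensities were 8.06, 8.03 and 7.90 in controls and 7.65 and 7.24 in treated liver, so the groups did not overlap. The treated arrays differed from each other by 0.41, more than the 0.17 spanned by the controls. The difference was -0.55 ± 0.15 (SE; limma, adjusted p = 0.202), and it was -0.35 without treated replicate 2. Of the 941 genes of like level 2.44% were at or below it.

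Clock itself was measured at 9.63, 9.70 and 9.65 in controls and at 9.66 and 9.34 in treated liver. The first treated array sat inside the narrow range of the controls and the second below it. Its difference of -0.15 ± 0.13 (SE) had a 95% confidence interval of -0.48 to 0.17, and was 0.01 without treated replicate 2. To compare the 2 paralogues directly, the log2 ratio of the Npas2 probe set to that of Clock was taken within each array. It was -1.34, -1.21 and -1.59 in controls and -2.56 and -2.75 in treated liver, a change of -1.28 in the ratio. An exact permutation test over the 5 arrays, two-sided on the size of the change, gave p = 0.1, the smallest that 10 splits allow, and 0.2 when adjusted over the 4 ratios compared here.

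In the negative limb the members did not share a direction: 4 of the 6 had lower and 2 had higher means in treated liver. Per2, whose protein forms with the cryptochromes the complex that blocks the positive limb, had the tightest controls of the 10, at 6.81, 6.80 and 6.79. Treated liver stood at 6.24 and 6.43. The difference was -0.47 ± 0.11 (SE; limma, adjusted p = 0.192), and treated replicate 1 was the lower of the treated arrays here, unlike for Npas2 and Arntl. Its neighbours in level had a median of -0.17, and 9.03% of them were at or below Per2.

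Cry1, a repressor of CLOCK and BMAL1, had log2 intensities of 7.05, 6.91 and 6.36 in controls and 6.22 and 5.98 in treated liver. The third control lay 0.15 above the nearer treated array and 0.55 below the next control. The difference was -0.68 ± 0.22 (SE; limma, adjusted p = 0.227), and it ran from -0.54 without control replicate 1 to -0.88 without control replicate 3. After quantile normalization the groups overlapped and the difference was -0.52. Its paralogue Cry2 was at 7.28, 7.15 and 7.46 in controls and 7.36 and 7.31 in treated liver, so both treated values fell inside the range of the controls, with a difference of 0.04 ± 0.13 (SE) and a 95% confidence interval of -0.27 to 0.35. The log2 ratio of Cry1 to Cry2 was -0.22, -0.24 and -1.10 in controls and -1.15 and -1.33 in treated liver. Control replicate 3 stood with the treated arrays in this ratio, and the exact permutation test gave p = 0.2 (0.267 adjusted over the 4 ratios). The ratio of Per2 to Cry2 moved by -0.51 (exact permutation test, p = 0.1, adjusted 0.2).

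Per1, a period gene that glucocorticoids can induce, varied more within each group than between them. It read 5.84, 6.83 and 5.88 in controls and 5.58 and 6.31 in treated liver, and the difference of -0.24 ± 0.37 (SE) turned to 0.09 without control replicate 2 and to 0.13 without treated replicate 1. Its 95% confidence interval, -1.13 to 0.66, includes changes as large as that of Cry1 in the lower direction. The ratio of Per2 to Per1 changed by -0.23 (exact permutation test, p = 0.6), with overlapping groups.

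Per3, a period gene that is not needed for the rhythm itself in mice, had values of 5.44, 5.33 and 5.69 in controls and 5.69 and 5.90 in treated liver. Treated replicate 1 and control replicate 3 were level to within 0.001, so the groups met. The difference was 0.31 ± 0.15 (SE; limma, adjusted p = 0.312), 0.43 after quantile normalization (limma, adjusted p = 0.327), and 0.20 without treated replicate 2. Of the 941 genes of like level 96.6% were at or below Per3, against a bin median of -0.14. Per3 is the gene whose promoter stretch shows 2 D-boxes, and a link between these and its difference was not tested.

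Ciart encodes CHRONO, a repressor that the positive limb itself switches on through E-boxes. The chosen probe set gave 4.84, 4.56 and 4.78 in controls and 4.33 and 4.15 in treated liver, without overlap, and a difference of -0.49 ± 0.13 (SE; limma, adjusted p = 0.202). Of the 941 genes of its level, whose median difference was 0.14, 1.49% were at or below it. The other probe set of Ciart read 4.75, 4.35 and 4.10 in controls and 4.36 and 3.99 in treated liver, with overlapping groups and a difference of -0.23 ± 0.22 (SE). Of the 20 named probe sets numbered next to the chosen one, 18 belong to genes on chromosome 10 and 0 to genes on chromosome 3, where Ciart lies, while all 20 next to the other one belong to chromosome 3. For every other clock gene, 18 to 20 of the 20 neighbours belong to the gene's own chromosome. Which of the 2 probe sets follows the Ciart transcript better was not tested, and both were dim, at the 42.5th and 38.6th percentile of level.

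Nfil3, the repressor of D-box sites, spread widely among controls, at 8.74, 7.97 and 7.83, and stood at 8.04 and 7.55 in treated liver. The groups overlapped, and the difference of -0.39 ± 0.30 (SE) was -0.11 without control replicate 1, -0.14 without treated replicate 2 and -0.63 without treated replicate 1.

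**Figure D3:**
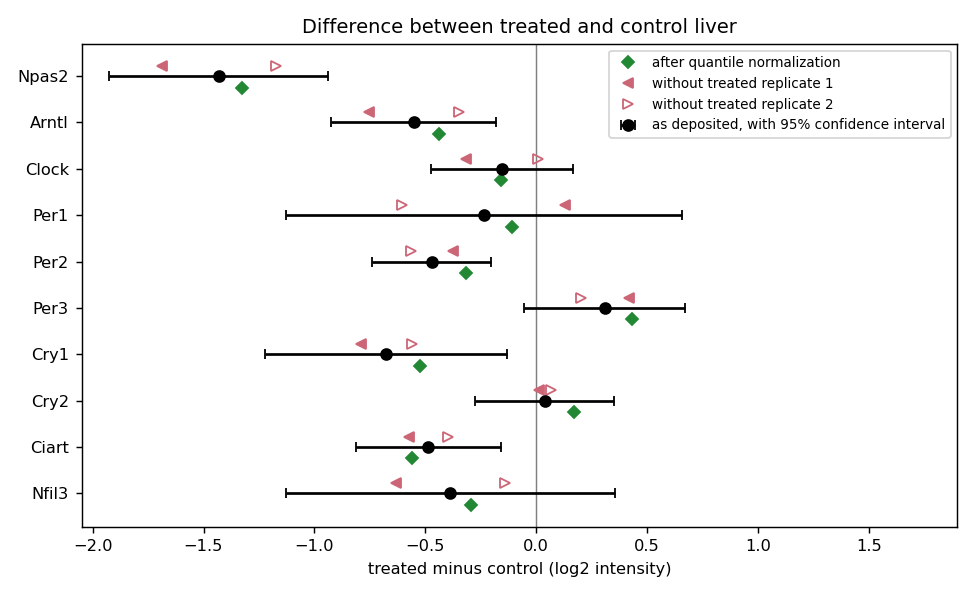
Difference between treated and control arrays for each clock gene (log2, horizontal axis), with black points and bars for the estimate and its 95% confidence interval from limma, green diamonds for quantile-normalized values, and triangles for the estimate without each treated array. The intervals of Npas2, Arntl, Per2, Cry1 and Ciart lie below 0 before adjustment, and those of the other 5 genes include it.

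Among the accessory loop and the D-box activators some probe sets were higher and others lower in treated liver. Tef, a D-box activator, was at 6.53, 6.65 and 6.86 in controls and at 7.02 and 7.15 in treated liver, without overlap, a difference of 0.41 ± 0.14 (SE; limma, adjusted p = 0.228). Nr1d2, which encodes REV-ERB beta, a repressor of Arntl and Npas2, was at 8.10, 8.47 and 8.67 in controls and 8.86 and 8.76 in treated liver, a difference of 0.40 ± 0.18 (SE) that was 0.24 without control replicate 1. Its second probe set was near the floor, at the 8.5th percentile of level, and differed by 0.03. Hlf, the third D-box activator, stood at 7.48, 7.74 and 7.56 in controls and 7.53 and 7.58 in treated liver, a difference of -0.04 ± 0.12 (SE) with overlapping groups.

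Dbp and Nr1d1 were measured only by probe sets that carry a second gene symbol, so their values cannot be given to either gene alone. The probe set shared by Dbp, the main D-box activator of liver, and Sphk2 read 5.27, 5.36 and 6.42 in controls and 6.80 and 7.73 in treated liver, a difference of 1.58 ± 0.43 (SE; limma, adjusted p = 0.201). Treated replicate 2 was 2.04 above the control mean and control replicate 3 was 0.74 above it. Of the 2 probe sets shared by Nr1d1, which encodes REV-ERB alpha, and Thra, a thyroid hormone receptor gene, one read 9.75, 9.53 and 10.23 in controls against 10.91 and 10.57 (difference 0.90 ± 0.23, SE). The other read 8.36, 8.27 and 8.32 against 8.17 and 8.04 (difference -0.21 ± 0.11, SE), so these 2 probe sets went in opposite directions. Rgs16, a rhythmic regulator of G protein signalling that was picked for its values, read 7.40, 6.70 and 8.11 in controls and 8.46 and 9.41 in treated liver (difference 1.53 ± 0.46, SE; limma, adjusted p = 0.212).

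Setting the arrays side by side, control replicate 3 was the control nearest to the treated livers for most of a chosen set of probe sets. Among the 5 clock genes without overlap, it was the control nearest to the treated mean for 4. Tef, Nr1d2, Rgs16 and the probe sets shared by Dbp or Nr1d1 gave 6 without overlap, and it was nearest for 5. Rgs16, picked for its values, was the only output gene among these 6. The other rhythmic output genes without overlap were mixed. For Alas1, Tfrc, Lpin1 and Upp2 control replicate 1 was nearest, for Cyp7a1 control replicate 2 and for Nampt control replicate 3. Over all 8401 genes without overlap, control replicate 3 was the nearest control for 28.7%, control replicate 1 for 43.1% and control replicate 2 for 28.2%. The position of this array was noticed in the values, and it is given as a description. For Per2 the controls lay within 0.02 of each other, so their order there carries no weight. Without control replicate 3, the differences were -1.54 for Npas2, -0.60 for Arntl, -0.47 for Per2, -0.88 for Cry1 and -0.46 for Ciart, and both treated arrays then lay above the remaining controls for Per3 and Cry2.

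**Figure D4:**
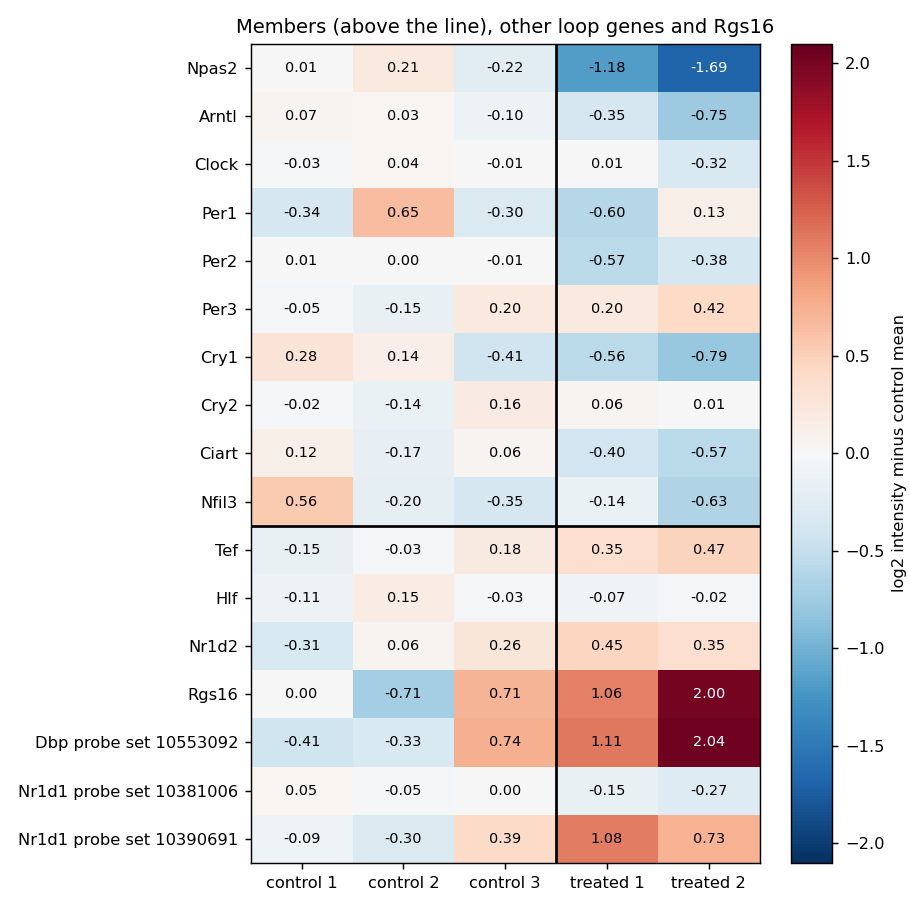
Log2 intensity minus the control mean on each array (columns) for the 10 clock genes above the horizontal line and for Tef, Hlf, Nr1d2, Rgs16 and the probe sets shared by Dbp or Nr1d1 with another gene below it. Red is above and blue below the control mean, and control replicate 3 leans to the same side as the treated arrays for Npas2, Cry1, Rgs16 and the Dbp probe set.

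Genes around the clock were taken as 8 lists by role, also with earlier results of these data known, and 68 of 79 genes were measured. Of these 52 were lower and 16 higher in treated liver, or 76.5% lower against 43.7% of all genes and 66.1% of those above the median level. Both treated arrays lay below all controls for 23 (33.8%, near the 32.6% of brighter genes and above the 19.5% of all genes) and above for 8 (11.8%, against 8.64% and 25.1%). Limma called 0 after adjustment. At an unadjusted p under 0.05, 6 were lower (8.82%, against 14.2% of brighter and 8.4% of all genes) and 4 higher (5.88%, against 2.15% and 9.91%). Without treated replicate 2, 46 were lower and 22 higher. The lists are described by these counts and their medians, beside the median of -0.10 of the brighter genes.

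Among the partners of the positive limb and other E-box repressors, 3 of 5 were lower, with a median of -0.16. Arntl2, a paralogue of Arntl, was at -0.34 ± 0.16 (SE), the E-box repressor Bhlhe40 at -0.38 ± 0.20, with overlapping groups, and Cipc, an inhibitor of CLOCK, at -0.16 ± 0.10. Without treated replicate 2, Bhlhe40 was at -0.10. Of 3 measured receptors that act on ROR elements 2 were higher, Nr1d2 and Rorb (0.19 ± 0.11), while Rora, the activator, was at -0.14 ± 0.12, or -0.02 without treated replicate 2. Rorb was dim, at the 22.3rd percentile of level, where the median difference of its bin was 0.20, and after quantile normalization it was at 0.04.

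The enzymes that mark PER and CRY proteins for turnover or protect them were measured by 13 genes, and 13 of 13 had a lower mean in treated liver, with a median of -0.20 and differences between -0.33 and -0.03. Those of smallest p were Gsk3b, a kinase that acts on several clock proteins, at -0.31 ± 0.11 (SE; limma, adjusted p = 0.244), the AMPK subunit gene Prkaa1 at -0.29 ± 0.12 and the casein kinase gene Csnk1a1 at -0.33 ± 0.14. Without treated replicate 2, Gsk3b was at -0.20 and Csnk1a1 at -0.16. The casein kinase genes best known for phosphorylating PER, Csnk1d and Csnk1e, were at -0.03 and -0.16, and Csnk1d was at 0.07 without treated replicate 2. After quantile normalization the list's median was -0.14, and without treated replicate 2 it was -0.09, with 11 genes lower and 2 higher. Of 13 chromatin and transcription cofactors 9 were lower, with a median of -0.14, led by Ppargc1a, a coactivator of ROR proteins (-0.38 ± 0.16, SE), the demethylase gene Kdm5a (-0.23 ± 0.13) and Sfpq (-0.34 ± 0.19), which encodes an RNA-binding protein. Without treated replicate 2, Kdm5a was at -0.09 and Sfpq at -0.07.

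Of 14 measured rhythmic output genes of liver, 11 were lower and 3 higher, or 8 and 6 without treated replicate 2. An unadjusted p under 0.05 was found for 4 with a lower and 1 with a higher value, against 14.2% and 2.15% of brighter genes and 8.4% and 9.91% of all genes. Alas1, the rate-limiting enzyme of haem synthesis and a known target of NPAS2 and BMAL1 in mouse liver, read 10.67, 11.20 and 10.90 in controls and 10.11 and 9.45 in treated liver. The difference was -1.15 ± 0.24 (SE; limma, adjusted p = 0.190), with no overlap. Cyp7a1, which starts the main route from cholesterol to bile acids, was at -0.63 ± 0.18 and the transferrin receptor gene Tfrc at -0.66 ± 0.19 (-0.44 without treated replicate 2), both without overlap. Nampt, which makes a precursor of NAD and is switched on by the positive limb, was at -0.36 ± 0.13. By contrast Elovl3, a fatty acid elongase, was at -0.01 ± 0.13 and the liver glycogen synthase Gys2 at -0.09 ± 0.16. Without treated replicate 2 both were above 0, at 0.10 and 0.12.

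Clock phase in liver also follows body temperature and glucocorticoids, so genes that respond to these were counted. Of 7 measured temperature-responsive genes 6 were lower, with a median of -0.09. The split was 4 lower and 3 higher after quantile normalization and also without treated replicate 1, and the median was -0.15 without control replicate 2 or without control replicate 3. The heat shock gene Hsph1 was at -0.73 ± 0.23 (SE), or -0.37 without treated replicate 2, Hsp90aa1 at -0.46 ± 0.24, or -0.10 without that array, and Hspb1 at 0.59 ± 0.24, or 0.33 without it. The cold-induced genes Cirbp (-0.07 ± 0.19) and Rbm3 (-0.20 ± 0.19) had overlapping groups, and without treated replicate 1 they were at 0.17 and 0.06. The chromosomes of neighbouring probe sets were looked up for the clock members only, so whether these probe sets sit with their genes was not checked. Of 11 glucocorticoid-responsive genes 8 were lower, with a median of -0.18. Without treated replicate 1, 6 were lower and 5 higher, and the median was -0.06 after quantile normalization, -0.10 without control replicate 2 and -0.12 without treated replicate 2. Mt2, a metallothionein, was at 0.97 ± 0.18 (limma, adjusted p = 0.187) and Mt1 at 0.43 ± 0.18, or 0.15 without treated replicate 2, while the phosphatase gene Dusp1 was at -0.89 ± 0.37, or -0.53 without control replicate 1, and Fkbp5 at -0.21 ± 0.14, or -0.06 after quantile normalization and -0.11 without treated replicate 2.

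**Figure D5:**
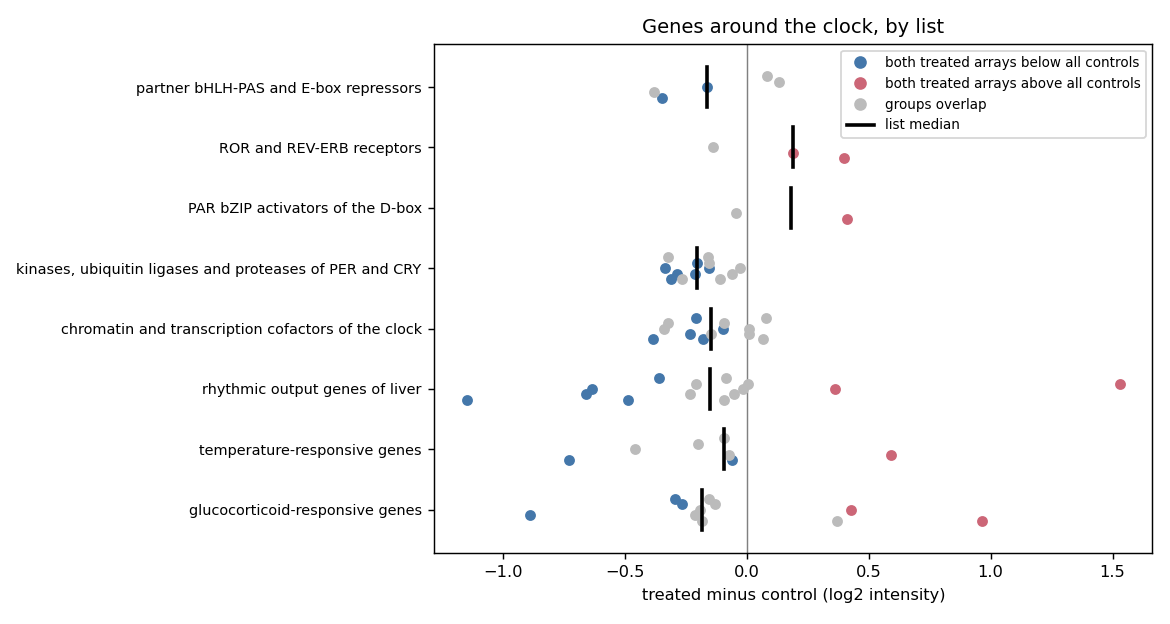
Difference between treated and control arrays (log2, horizontal axis) for each measured gene of the 8 lists (rows). Blue points have both treated arrays below all controls, red points both above, grey points overlap, and black bars are list medians, which lie between -0.20 for the enzymes acting on PER and CRY and 0.19 for the ROR and REV-ERB receptors.

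The genes whose profile over the 5 arrays lay closest to that of Npas2 were sought among the other genes, by the root mean square distance between log2 deviations from the control mean. The nearest 5 were the phosphate transporter Slc34a2 (distance 0.17), the bile acid transporter Slc10a2 (0.22), the cell cycle inhibitor Cdkn1a (0.23), Alas1 (0.24) and the choline kinase Chka (0.26). Their differences between treated and control liver ran from -1.33 for Cdkn1a to -1.07 for Chka. No other clock gene was among them. The distance depends on the size of a difference, and the next largest among the clock genes was -0.68 for Cry1. Their absence therefore says nothing about whether they share a direction or pattern with Npas2.

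Whole liver holds several cell types, and in such samples fewer cells of a type and less RNA per cell cannot be told apart. Hepatocyte markers were among the brightest probe sets, all 6 at or above the 98.5th percentile of level, and their summed intensity was 39570.7 to 41448.9 in controls and 37884.9 to 39512.0 in treated liver. Csf1r, the receptor targeted by the antibody, was at 8.49, 8.68 and 8.61 in controls and 7.93 and 8.12 in treated liver. Of 10 macrophage markers 8 were lower and 2 higher, and none was at 0. Without overlap 4 were lower and 1 higher, against 32.6% and 8.64% of brighter genes and 19.5% and 25.1% of all genes. The 4 were Csf1r, Ctss, Mpeg1 and Adgre1, at -0.60 to -0.48, and the higher one was Marco, at 1.34. Clec4f, Cd68, Timd4, Vsig4 and Cd5l overlapped, at -0.29 to 0.03. The summed intensity of all 10 was 3467.0 to 3979.5 in controls and 2735.4 to 3555.6 in treated liver. The part of these markers in the clock values was not tested. Summed markers of endothelial cells were 2865.8 to 2953.5 in controls and 3156.2 to 3247.2 in treated liver, but 3 of the 5 were lower, with a median of -0.10. The higher sum followed Clec4g, a marker of sinusoidal endothelium, at 1657.8 to 1740.6 in controls and 2073.6 to 2106.1 in treated liver. Stellate cell markers summed to 3215.8 to 3463.8 and 3282.0 to 3496.1. Lymphocyte markers summed to 179.3 to 221.9 and 146.4 to 165.8, and Ptprc, which all leukocytes express, read 93.7 to 129.8 in controls and 67.9 to 71.3 in treated liver, while Cd8a, Cd79a and Cd3e overlapped. Granulocyte markers summed to 59.7 to 65.5 and 72.7 to 73.1. They were dim, at the 35.2nd to 43.9th percentile of level, and dim probe sets tended to be higher on the treated arrays. After quantile normalization S100a9 was at 0.28, S100a8 at 0.19 and Mpo at -0.004. Cholangiocyte markers summed to 206.3 to 230.1 and 159.3 to 207.3, with Sox9 lower without overlap (-0.51) and Krt19 and Epcam higher with overlap (0.20 and 0.08).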

How the data were processed

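The deposited table gives, per the labels, 1 array of liver RNA per sample. The values are linear probe set intensities as deposited by the authors for 35556 probe sets, with medians of 32.5 to 33.9 per array. Affymetrix Expression Console 1.1 is named in the submitters' processing notes, and how background, scaling and summarisation were set there was not stated in these sources. RNA was amplified as cDNA and labelled with biotin, per the labels' protocols.

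Each deposited intensity was put on the log2 scale with nothing added. Probe sets were named by the platform annotation, which can be old, with symbols updated by gene ID through the RefSeq gene table: 21218 had 1 symbol, 1881 several, and 12457 are unnamed here. The group difference was fitted over all probe sets with R 4.3.3 and limma 3.58.1 (functions lmFit and eBayes, two-sided, adjusted p threshold 0.05), with 3 residual and 3.03 prior degrees of freedom; limma was also tested on simulated data. Exact permutation tests of 3 against 2 arrays cannot go below 0.1. Level bins held 20 equal groups of genes. The number of arrays limits the precision, and the median SE was 0.138. Named beside the 10 members were up to 3 genes of smallest p in each list, fixed partner genes, the 5 nearest profiles to Npas2, and a few genes picked after their values were seen (Rgs16, Nampt, Elovl3, Gys2, Csnk1d, Csnk1e, Cirbp, Rbm3, Fkbp5 and the cell type markers named singly other than Csf1r). Lpin1 and Upp2 were named because their groups did not overlap. The members and lists were chosen with earlier results of these data known. Alternatives were other normalizations, filters on dim probe sets, other variance models, array weights, the replicate block, an added 16 and leaving out each array. Listed genes without a single-symbol probe set stayed out of the counts. Figures were drawn with matplotlib 3.10.9.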

Additional observations from a re-analysis of the deposited data

How the results depend on the processing

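Of 150 recomputed differences of the clock genes under 16 alternatives, 145 kept their direction and their side of the threshold. No clock gene passed the adjusted threshold in the main fit, so the same side means not called. The filters on dim probe sets, the refit on 1 probe set per gene and the robust variance model cannot change a difference, only its p. Npas2 alone passed, with an adjusted p of 0.0399, when limma was refitted on 1 probe set per gene (-1.43), so that 1 member was called there. Signs turned only for Clock, Per1 and Cry2 when 1 array was left out: Clock ran from -0.32 to 0.0087, Per1 from -0.60 to 0.13 and Cry2 from -0.033 to 0.12. The labels give the samples a replicate number and state no pairing. Deviations of same-numbered arrays from their group means correlated at 0.03, which cannot show whether such samples were paired. Control replicate 3 has no treated array of the same number, so the replicate block gives the same differences as leaving that array out. They were -1.54 for Npas2, -0.60 for Arntl, -0.88 for Cry1 and -0.56 for Nfil3. With the replicate block 6 members were lower at a limma p under 0.05, against 5. The number lower with an unadjusted p under 0.05 ran from 3 to 5 when 1 array was left out, 3 being without treated replicate 2, where Cry1 and Ciart were no longer among them. With the other Ciart probe set, an alternative chosen after seeing the data, 4 members lay below all controls and 4 were lower at that p. Cry1 also missed it with quantile normalization, cyclic loess and array weights, and without each array other than control replicate 3. The number above all controls was 1 (Per3) with quantile normalization, median centring or cyclic loess, and 0 to 2 when 1 array was left out. The number higher with an unadjusted p under 0.05 was 1 with quantile normalization or cyclic loess and 0 to 1 when 1 array was left out. The ratio of Per2 to Per1 changed by -0.56 to 0.0376 when 1 array was left out. After quantile normalization list medians were -0.0631 for partners and E-box repressors, 0.0382 for ROR and REV-ERB receptors, 0.31 for D-box activators, -0.14 for enzymes acting on PER and CRY, -0.0587 for cofactors and -0.0571 for glucocorticoid-responsive genes. When 1 array was left out, the medians ran from -0.18 to -0.10 for partners and E-box repressors, 0.11 to 0.27 for the receptors, 0.12 to 0.23 for D-box activators, -0.26 to -0.0862 for the enzymes, -0.21 to -0.0692 for cofactors, -0.20 to -0.10 for glucocorticoid-responsive genes, -0.21 to -0.09 for rhythmic output genes and -0.15 to -0.07 for temperature-responsive genes. The causes of these shifts were not tested.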
